A study of Mus musculus with 30 samples.

Results

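The cerebral cortex of mice in which Brap was to be deleted by Thy1-Cre was compared with that of control mice at 3 months of age. The comparison rests on 9 of the 30 libraries of the series, taken by their labels for genotype and age. These are 5 libraries of genotype Brapflox/floxThy1Cre, whose phenotype is labelled strong, and 4 of genotype Brapflox/wt Cre-, which have no phenotype label and which the series describes as littermates resembling wild type. No treatment was given, and polyadenylated RNA of the whole cortex was sequenced in libraries labelled as biological replicates. The groups differ both in Cre and in the number of floxed Brap alleles, so those differences cannot be told apart. The series as a whole asks how the loss of Brap affects cortical gene expression by cell type and age, and the Thy1-Cre arm stands for loss in postnatal neurons.

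Brap, also called IMP, is an E3 ubiquitin ligase that restrains the passage of signals from RAS through RAF to the MAP kinases MEK and ERK, in part by binding the scaffold KSR. Thy1-Cre lines use the promoter of a neuronal surface antigen gene and act after birth, mostly in projection neurons. Glia and vessels lie outside the reach of such a driver, and whole-cortex RNA mixes all of these cells. In such bulk RNA, fewer cells of a type and less RNA per cell cannot be told apart.

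Levels are given as CPM, the count of a gene relative to the scaled total of its library, and listed in the order of replicates 1 to 4 for the controls and 1 to 5 for Thy1-Cre. Differences are log2 fold changes of Thy1-Cre over control ± SE, tested in edgeR with its quasi-likelihood method, and p-values were adjusted after Benjamini and Hochberg over 17796 genes, and a gene counts as called below an adjusted p of 0.05. Libraries held 21430680 to 28719731 estimated counts. By Xist and Y-linked counts, 2 controls were male and 2 female, while all 5 Thy1-Cre mice were female. At the genome-wide level 1866 genes were called higher (10.5% of those tested) and 1345 lower (7.56%). Every Thy1-Cre library lay above every control for 1308 genes (7.35%) and below for 1382 (7.77%). The counts given for gene lists below are to be read against these shares. Among females alone, with 2 controls, 186 genes were called higher and 190 lower, and of 183 called genes selected for description 48 kept their call. Leaving out replicate 2 of Thy1-Cre gave 2095 and 1500, and leaving out replicate 5 gave 1489 and 839.

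Brap itself was not lower in the libraries labelled Thy1-Cre. Controls held 66.5, 59.2, 58.4 and 62.5 CPM of Brap (a protein-coding gene on the plus strand of chromosome 5, 121660563 to 121687256 in GRCm38, with the identifier ENSMUSG00000029458.14), and the Thy1-Cre libraries held 74.4, 86.5, 90.4, 71.7 and 80.5 CPM. Each of the 5 Thy1-Cre values lay above all 4 controls, a difference of 0.39 ± 0.12 (edgeR adjusted p = 0.0268). The call was lost with sex as a covariate, where the difference was 0.31 with an edgeR adjusted p of 0.0877, and without replicate 3 of Thy1-Cre, where it was 0.35 with an adjusted p of 0.0559, or without any of control replicates 2 to 4. The counts cover the whole gene in all cells of the cortex, and without the position of the loxP sites, not given in the labels, they do not check the deletion. Thy1, the gene whose promoter drives Cre, ranged from 457 to 573 CPM in the controls and 425 to 711 CPM in the Thy1-Cre libraries and was not called (edgeR adjusted p = 0.998).

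Among the genes that carry signals from RAS to ERK, Brap included, 2 of 17 were called higher and none lower. The share called higher, 11.8%, was near the 10.5% of all tested genes. The other one was Grb2, an adaptor that links receptors to RAS activation, at 129, 149, 144 and 146 CPM in the controls and 177, 189.6, 174, 147 and 205 CPM in the Thy1-Cre libraries (0.33 ± 0.1, edgeR adjusted p = 0.0279). One Thy1-Cre library, replicate 4, lay within the control range for Grb2. Its call was lost with a sex term, where the edgeR adjusted p of Grb2 was 0.082 and Brap was not called either, in a fit of the 9 libraries alone (0.0693), among females (0.273), without control replicate 1 (0.0978) and without Thy1-Cre replicate 5 (0.0798). The feedback and output genes of the pathway showed 2 of 20 called higher (10.0%) and 1 lower (5.0%), against 10.5% and 7.56% of all tested genes. Their median log2 fold change was 0.28 against 0 over all tested genes.

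Those feedback genes were not alike across the 5 mice. Fosl1, an AP-1 subunit that ERK stabilises, stood at 0, 0.0396, 0 and 0.0474 CPM in the controls and at 2.52, 0.264, 13.5, 2.23 and 6.11 CPM in the Thy1-Cre libraries (edgeR adjusted p = 0.000252), 237-fold in summed counts per total, with a 95% counting interval of 65.4 to 1964. Every Thy1-Cre library was above every control, replicate 3 the most and replicate 2 the least. Myc, a growth-promoting transcription factor, was at 2.55, 3.8, 2.78 and 2.89 CPM against 6.58, 2.46, 14.8, 8.57 and 10.9 CPM and rose by 1.52 ± 0.33 (edgeR adjusted p = 0.00239), with replicate 2 below all controls. Dusp4, a phosphatase of nuclear ERK, had 10.6, 10.1, 6.9 and 12.6 CPM in the controls and 6.58, 9.8, 44.6, 6.45 and 29.4 CPM in the Thy1-Cre libraries. Spry2, an inhibitor of receptor signalling to RAS, had 46.1, 45.5, 49.6 and 45.6 CPM and 39.5, 45.2, 91.3, 42.2 and 69.2 CPM. For both, only replicates 3 and 5 lay above the controls and neither passed the test (edgeR adjusted p = 0.333 and 0.363). Etv1, a transcription factor that also marks layer 5 neurons, went the other way, from 78.2, 83.95, 86.7 and 82.5 to 52.7, 61.5, 50.99, 54.4 and 44.5 CPM, lower in every Thy1-Cre library (-0.65 ± 0.18, edgeR adjusted p = 0.0127).

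**Figure D1:**
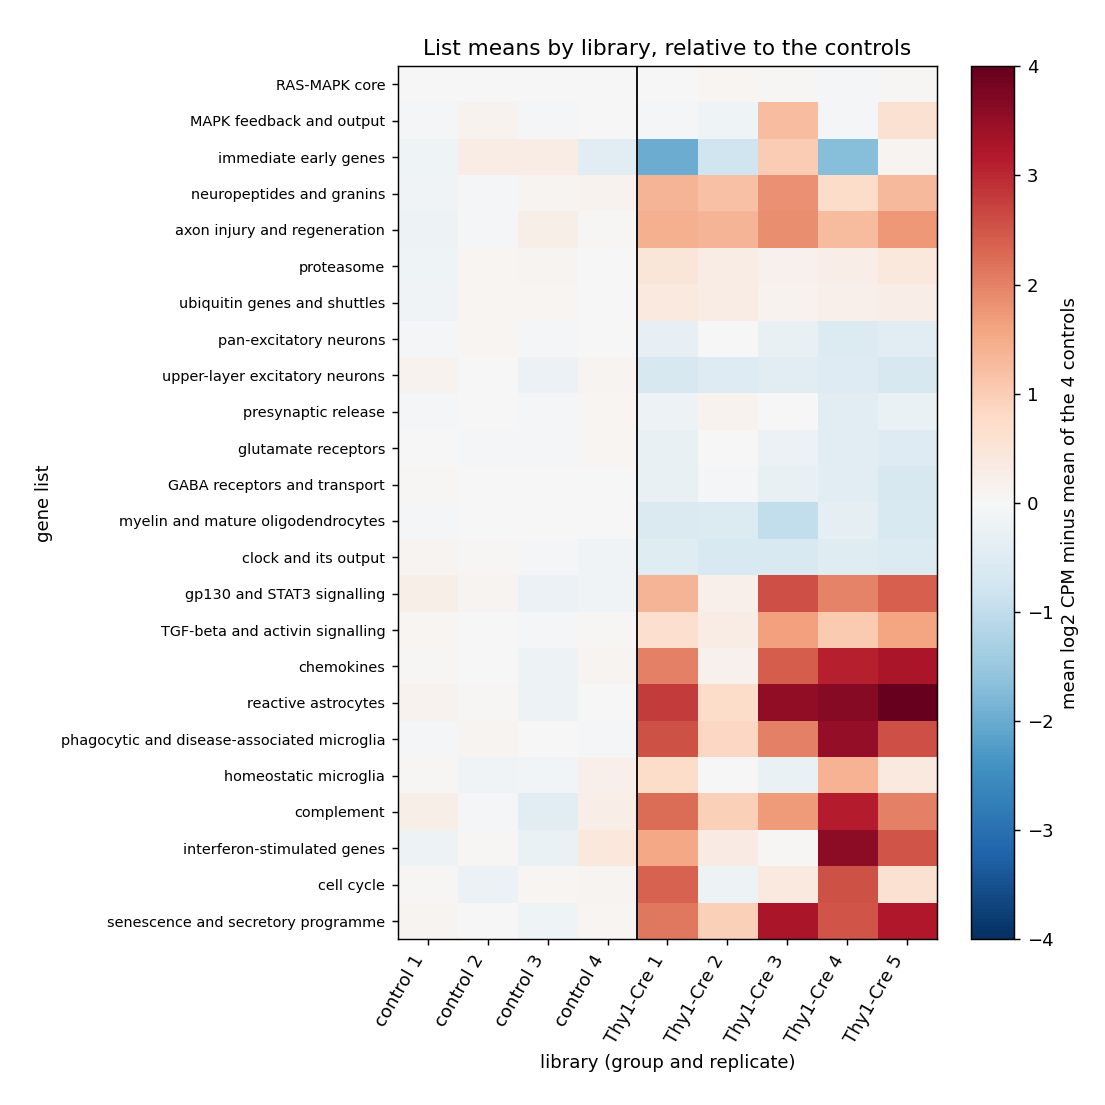
Mean log2 CPM of each gene list in each library minus the mean of the 4 controls, with lists as rows, libraries as columns and colour running from lower (blue) to higher (red). Thy1-Cre replicate 2 follows the other 4 for neuropeptides, axon injury, proteasome, myelin and clock genes. It lies closer to the controls than they do for reactive astrocyte, chemokine and gp130 genes, and for pan-excitatory, glutamate receptor and GABA genes.

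Some genes of neurons were near 0 in the controls and high in all 5 Thy1-Cre libraries. Slc6a5, the glycine transporter of glycinergic nerve endings, was at 0.164, 0, 0.0371 and 0.0474 CPM in the controls and at 13.7, 15.2, 100.05, 21.6 and 83.2 CPM in the Thy1-Cre libraries, a rise of 9.46 ± 1.69 (edgeR adjusted p = 0.000507). The groups did not overlap, and replicates 3 and 5 were the highest. Under another method, limma with voom, the call of Slc6a5 was lost. Elsewhere in the series Slc6a5 reached 2.94 to 26.6 CPM in the 6 Emx1-Cre libraries of 3 months, where Brap was to be deleted in neural progenitors, and no more than 0.38 CPM in the 5 Tie2-Cre libraries. In the 6 Emx1-Cre libraries of 10 months, labelled recovered, it ranged from 0.04 to 139 CPM, so its highest values were not in Thy1-Cre.

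Injury genes of neurons followed. Of the axon injury and regeneration list, 7 of 12 tested members were called higher and none lower. Gal, the neuropeptide galanin, stood at 0.616, 0.277, 0.26 and 0.237 CPM in the controls and 20.4, 15.3, 18.9, 6.61 and 16.7 CPM in the Thy1-Cre libraries (5.46 ± 0.88, edgeR adjusted p = 0.000194). Ecel1, a membrane peptidase induced in damaged neurons, rose from 12.04, 13.8, 15.4 and 13.2 to 57.9, 66.3, 68.5, 53.8 and 79.9 CPM (2.26 ± 0.37, edgeR adjusted p = 0.000232). The 2 groups did not overlap for either gene, and replicate 4, not replicate 2, was the lowest of the Thy1-Cre libraries. Atf3, a stress-induced transcription factor, was at 0.575, 1.7, 1.04 and 0.758 CPM against 10.9, 3.95, 87.7, 7.81 and 18.9 CPM (4.65 ± 0.85, edgeR adjusted p = 0.000563), highest in replicate 3. Sprr1a, a cytoskeletal protein of regenerating axons, had 0, 0, 0.0371 and 0.19 CPM in the controls and 1.37, 1.19, 4.18, 3.75 and 1.79 CPM in the Thy1-Cre libraries (edgeR adjusted p = 0.00107). Gap43, the growth cone protein, at 158 to 223 CPM in the controls and 194 to 265 CPM in the Thy1-Cre libraries, and Stmn2, at 272 to 342 CPM in the controls and 289.6 to 437 CPM in the Thy1-Cre libraries, were not called.

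Neuropeptide and granin genes, which encode the cargo of dense-core vesicles, followed the same libraries. Of these, 12 of 18 were called higher and none lower, with a median of 1.19, and for 8 of them all Thy1-Cre libraries exceeded all controls. Npy was at 67.1, 48.2, 63.03 and 62.9 CPM in the controls and 382, 326, 336, 232 and 265 CPM in the Thy1-Cre libraries (2.35 ± 0.4, edgeR adjusted p = 0.000301). Adcyap1, which encodes the peptide PACAP, went from 11.9, 11.3, 15.9 and 16.2 to 87.8, 68.7, 175, 43.6 and 57.4 CPM (2.64 ± 0.52, edgeR adjusted p = 0.0011). For both, replicate 4 was the lowest of the Thy1-Cre libraries and still above every control. Scg2, a granin, was at 188, 202, 196 and 259 CPM against 729, 549, 1442, 398 and 703 CPM and rose by 1.86 ± 0.37 (edgeR adjusted p = 0.00126). Members that were not called include Vip, at 32.8 to 38.6 CPM in the controls and 33.5 to 38.03 CPM in the Thy1-Cre libraries, Cck, at 126 to 165 CPM in the controls and 124 to 245 CPM in the Thy1-Cre libraries, and Chgb, at 358 to 429 CPM in the controls and 314 to 769 CPM in the Thy1-Cre libraries. Npy, Adcyap1 and Gal are made by interneurons as well as by stressed projection neurons, and bulk RNA does not say which held the transcripts.

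Promoters of Scg2 and Sst are shown because both genes were called higher, Sst less stably as given with the interneurons, and both hold the cAMP response element TGACGTCA, the site bound by CREB and related factors. Each line gives the 250 bases before the RefSeq gene start (GRCm38.p6), 5′ to 3′ on the gene's strand, with the element in capitals, for chr1:79440027-79440276 and chr16:23890845-23891094, both on the minus strand.
Scg2: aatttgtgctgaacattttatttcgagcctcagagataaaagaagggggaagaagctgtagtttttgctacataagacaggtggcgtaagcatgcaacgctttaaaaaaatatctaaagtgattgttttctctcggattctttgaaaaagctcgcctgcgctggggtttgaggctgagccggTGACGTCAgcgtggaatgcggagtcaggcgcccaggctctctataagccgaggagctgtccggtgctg
Sst: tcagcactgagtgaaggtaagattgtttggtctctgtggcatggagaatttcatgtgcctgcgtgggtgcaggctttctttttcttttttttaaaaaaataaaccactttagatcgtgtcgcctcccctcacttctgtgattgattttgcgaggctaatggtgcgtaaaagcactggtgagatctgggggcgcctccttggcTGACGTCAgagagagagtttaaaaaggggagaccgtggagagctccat
Searched on both strands of the same 250 bases, these letters were in 3 of the 15 members with a RefSeq promoter (20% of them) and in 1.77% of all 27025 genes with one. The third was Chgb, which was not called, while 10 of all 15 members were. A match is a description of the letters only.

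Protein turnover genes of the ubiquitin system were higher by small amounts. Of 26 proteasome subunits, 17 were called higher and none lower, with a median of 0.34. In 15 of the subunits all Thy1-Cre libraries exceeded all controls. Psmd1, a base subunit of the 19S cap, was at 103, 118, 126 and 109 CPM against 179, 159, 155, 147 and 178 CPM (0.52 ± 0.1, edgeR adjusted p = 0.000942). Without control replicate 1 only 9 subunits were called, and in a fit of the 9 libraries alone 12. Uchl1, an abundant neuronal deubiquitinase, went from 349, 475, 500.1 and 424 to 841, 932, 679, 695 and 684 CPM (0.81 ± 0.14, edgeR adjusted p = 0.000418). Vcp and Uba1, the unfoldase p97 and the main ubiquitin-activating enzyme, rose by 0.45 ± 0.09 and 0.4 ± 0.08 (edgeR adjusted p = 0.00106 and 0.00165). Of the ubiquitin list 6 of 16 were called higher (37.5%). Autophagy genes, with 2 of 15 (13.3%), and genes of the integrated stress response, with 2 of 17 (11.8%), were near the 10.5% of all tested genes. Atf4 and Ddit3, effectors of that response, were at 93.6 to 137 CPM in the controls and 79.9 to 208 CPM in the Thy1-Cre libraries and at 15.7 to 21.3 CPM in the controls and 14.3 to 26.4 CPM in the Thy1-Cre libraries, and neither was called.

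**Figure D2:**
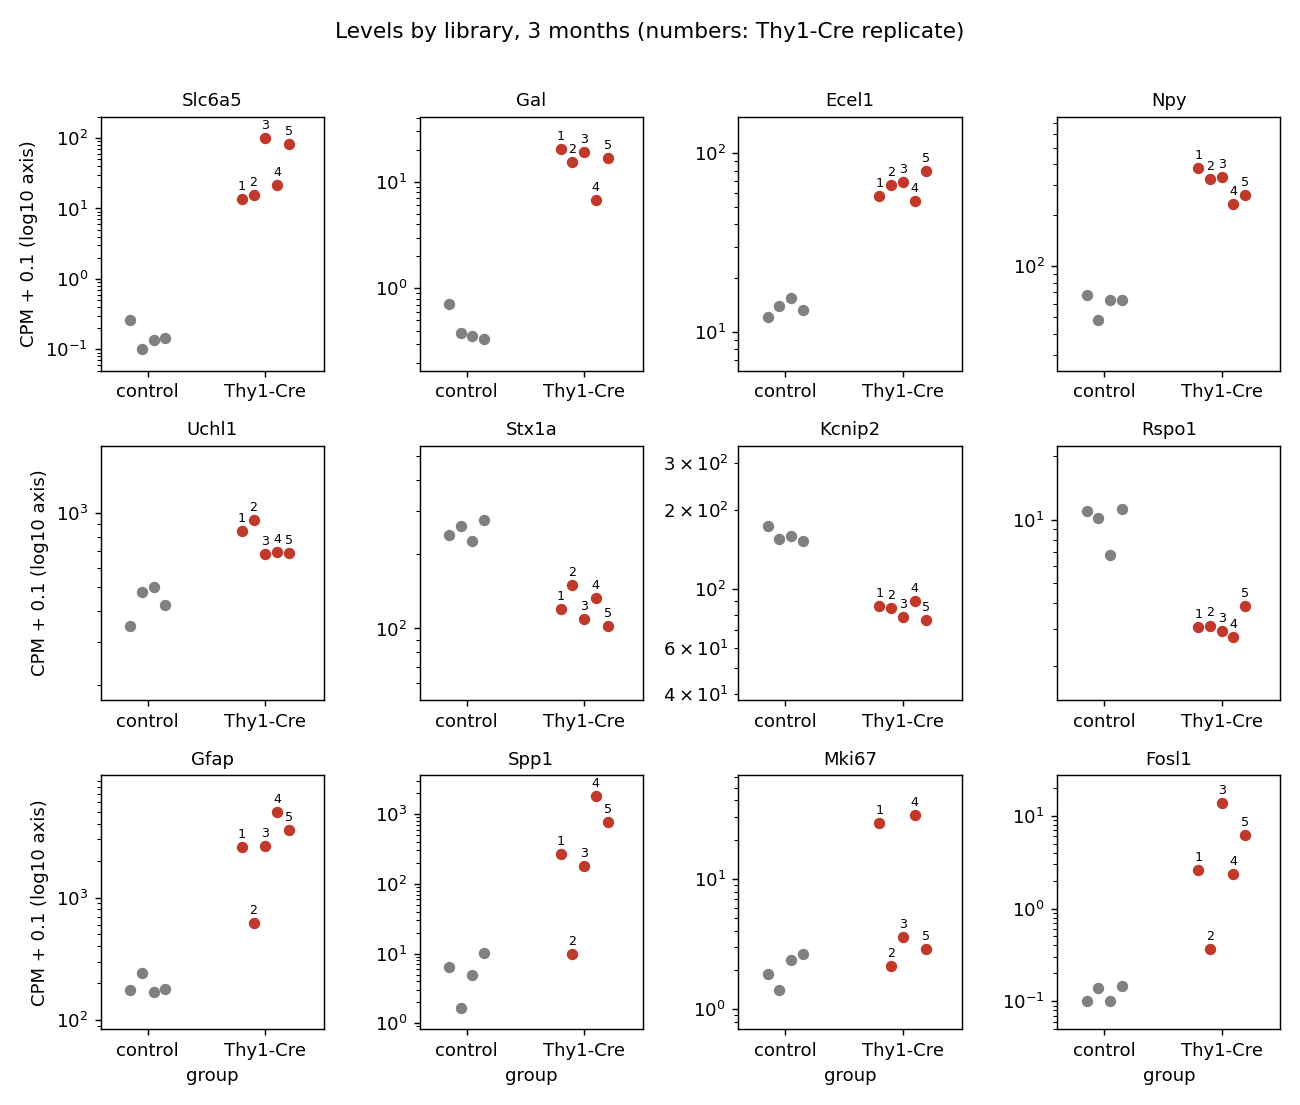
Level of 12 genes in each library, on a log10 axis of CPM plus 0.1, with the 4 controls as grey circles and the 5 Thy1-Cre libraries as numbered red points (the number is the replicate). Slc6a5, Gal, Ecel1, Npy and Uchl1 are high in all 5 mice, Stx1a, Kcnip2 and Rspo1 are low in all 5, and Gfap, Spp1, Mki67 and Fosl1 spread between the Thy1-Cre libraries, with replicate 2 the lowest of them.

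Activity-regulated genes split the Thy1-Cre mice. Of 17 members 2 were called higher (11.8%, against 10.5% of all tested genes) and 3 lower (17.6%, against 7.56%). Their mean log2 CPM was 3.69, 4.86, 6.67, 3.96 and 5.78 in replicates 1 to 5, against 5.23 to 5.98 in the controls, so replicates 1, 2 and 4 lay below the controls, replicate 5 within them and replicate 3 above. Egr1, an early transcription factor, fell from 358, 427, 387 and 319 to 57.2, 91.6, 301, 62.3 and 265 CPM (-1.26 ± 0.43, edgeR adjusted p = 0.0407), lower in every Thy1-Cre library. Arc, which acts at active synapses, was at 327, 541, 451 and 153 CPM against 21.2, 66.3, 219.7, 45.4 and 192 CPM (fell by 1.76 ± 0.56, edgeR adjusted p = 0.0314), with replicates 3 and 5 inside the control range. The call of Egr1 was lost without any 1 control or Thy1-Cre replicate 1, 2 or 4 (edgeR adjusted p of 0.0574 to 0.0975), and that of Arc without control replicate 1, 2 or 3 or the same Thy1-Cre libraries (0.0526 to 0.0967). Nr4a2, the third gene called lower and the member with the smallest adjusted p, fell by 1.35 (edgeR adjusted p = 0.0058). The call of Nr4a2 held with a sex term and without any 1 library, but not among females alone. Fos, at 34.9, 66.2, 84.03 and 17.02 CPM in the controls and 19.8, 7.47, 187, 12.2 and 62.9 CPM in the Thy1-Cre libraries, was not called (edgeR adjusted p = 0.889).

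Other activity-dependent genes were high in replicates 2, 3 and 5. Nptx2, a secreted protein of excitatory synapses, was at 39.2, 38.4, 25.7 and 68.3 CPM in the controls and 56.95, 519.6, 762, 55.8 and 339.6 CPM in the Thy1-Cre libraries (3.02 ± 0.94, edgeR adjusted p = 0.0275). Bdnf, a neurotrophin, was at 27.2, 25.1, 18.1 and 38.8 CPM against 38.8, 154, 336, 34.9 and 119 CPM (2.32 ± 0.71, edgeR adjusted p = 0.0239). Inhba, a subunit of activin, was at 13.7, 7.92, 8.42 and 23.5 CPM against 11.7, 36.4, 335, 16.3 and 149 CPM (3.04 ± 1.02, edgeR adjusted p = 0.0392). For these genes replicates 1 and 4 lay in or near the control range, and the other 3 lay above it. Calls of Nptx2 and Bdnf were lost without control replicate 1, 2 or 3 or Thy1-Cre replicate 3 (edgeR adjusted p of 0.0647 to 0.0757 and of 0.0613 to 0.0832), and that of Inhba without any 1 control or Thy1-Cre replicate 3 or 5 (0.0546 to 0.142). With a sex term none of Egr1, Arc, Nptx2, Bdnf and Inhba was called. In a fit of the 9 libraries alone none of the immediate early genes was called in either direction.

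Genes of excitatory neurons were lower in part. Of the pan-excitatory list 4 of 12 genes were called lower and none higher. Camk2a, the main postsynaptic kinase, stood at 4429, 3495, 2921 and 3541 CPM in the controls and 1587, 2434, 1973, 1974 and 1649 CPM in the Thy1-Cre libraries and fell by 0.9 ± 0.17 (edgeR adjusted p = 0.000642). The groups did not overlap. Slc17a7, the vesicular glutamate transporter of cortical neurons, was at 1159.5, 1276, 1220.0 and 1219.8 CPM against 1775, 2381, 1818, 1128 and 1388 CPM and was not called (edgeR adjusted p = 0.0986).

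Layer markers moved unevenly. Upper-layer genes were called lower in 4 of 11 cases and higher in 1. Rspo1, a secreted enhancer of WNT signalling, fell from 10.8, 10.1, 6.71 and 11.1 to 2.99, 3.03, 2.85, 2.67 and 3.78 CPM (-1.65 ± 0.22, edgeR adjusted p = 3.42e-05). Lamp5, a vesicle protein, fell from 156, 158, 121 and 189 to 73.8, 70.5, 74.3, 67.9 and 51.97 CPM (-1.2 ± 0.2, edgeR adjusted p = 0.000188). Every Thy1-Cre library lay below every control for both. Wfs1, a protein of the endoplasmic reticulum mutated in Wolfram syndrome, rose from 148, 171, 183 and 147 to 319.6, 341, 358, 343 and 418 CPM (1.13 ± 0.2, edgeR adjusted p = 0.000431). Deep-layer genes were called lower in 3 of 13 cases (23.1%, against 7.56% of all tested genes) and higher in 1 (7.7%, against 10.5%). Cux2 was at 85.4 to 122 CPM in the controls and 80.9 to 176 CPM in the Thy1-Cre libraries. Bcl11b was at 88.6 to 110.2 CPM in the controls and 72.5 to 112 CPM in the Thy1-Cre libraries. Neither layer marker was called.

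Presynaptic genes included 4 of 18 called lower and 1 higher. Stx1a, a SNARE protein of vesicle fusion, fell from 239, 259, 225 and 274 to 119, 149.5, 109, 133 and 103 CPM (-1.02 ± 0.15, edgeR adjusted p = 6.52e-05). Rims1, an active zone scaffold, was at 317, 213, 214 and 263 CPM against 112, 151, 149, 107 and 103 CPM (fell by 1.02 ± 0.17, edgeR adjusted p = 0.00027). Syp, Snap25 and Vamp2, abundant proteins of nerve endings, were not called (edgeR adjusted p = 0.899, 0.265 and 0.52).

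On the receiving side, 9 of 16 glutamate receptor genes were called lower and 1 higher, with a median of -0.37. Gria4, an AMPA receptor subunit, went from 102, 84.4, 87.2 and 88.9 to 57.9, 69.7, 59.5, 57.97 and 49.1 CPM (-0.62 ± 0.14, edgeR adjusted p = 0.0023), and Grm2, a presynaptic metabotropic receptor, fell by 0.72 ± 0.19 (edgeR adjusted p = 0.00911), a call lost without control replicate 2 (edgeR adjusted p = 0.0588). Without control replicate 4, or without Thy1-Cre replicate 5, only 3 of the 16 were called lower. Homer2, a postsynaptic scaffold, fell further, from 97.8, 67.8, 64.4 and 76.5 to 22.02, 41.2, 27.9, 29.2 and 20.2 CPM (-1.45 ± 0.28, edgeR adjusted p = 0.000905). Of the postsynaptic density list 5 of 16 were called lower and none higher.

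Genes of inhibition and excitability were lower in part. Of 15 genes for GABA receptors and transport, 5 were called lower and none higher, and for 5 of the list every Thy1-Cre library lay below every control. Gabrd, the subunit of extrasynaptic GABA-A receptors, was at 54.2, 60.2, 57.5 and 68.3 CPM against 22.8, 30.2, 27.4, 24.9 and 21.3 CPM (fell by 1.25 ± 0.22, edgeR adjusted p = 0.000343). Kcnip2, a partner of A-type potassium channels, fell from 174, 154, 159 and 152 to 85.8, 84.8, 77.98, 90.005 and 75.9 CPM (-0.95 ± 0.14, edgeR adjusted p = 6.52e-05), with no overlap between the groups. It was one of 4 of 19 channel genes called lower.

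Interneuron markers did not fall as a group, with 3 of 15 called higher and 1 lower. Gad2, which makes GABA, was at 204, 191, 224 and 217 CPM in the controls and 469, 403, 625, 291 and 507 CPM in the Thy1-Cre libraries (1.13 ± 0.22, edgeR adjusted p = 0.000945). Sst rose by 0.8 ± 0.25 (edgeR adjusted p = 0.0267). The call of Sst was lost with a sex term, among females, with no filter, without control replicate 1, 2 or 4 and without Thy1-Cre replicate 2, at edgeR adjusted p of 0.0548 to 0.135. Pvalb, at 39.3 to 56.2 CPM in the controls and 28.7 to 39.9 CPM in the Thy1-Cre libraries, was not called. Erbb4, the neuregulin receptor of interneurons, fell by 0.58 ± 0.18 (edgeR adjusted p = 0.0276), a call lost without control replicate 1, 3 or 4, without Thy1-Cre replicate 1, 4 or 5 (edgeR adjusted p of 0.0601 to 0.0827) and with a sex term.

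**Figure D3:**
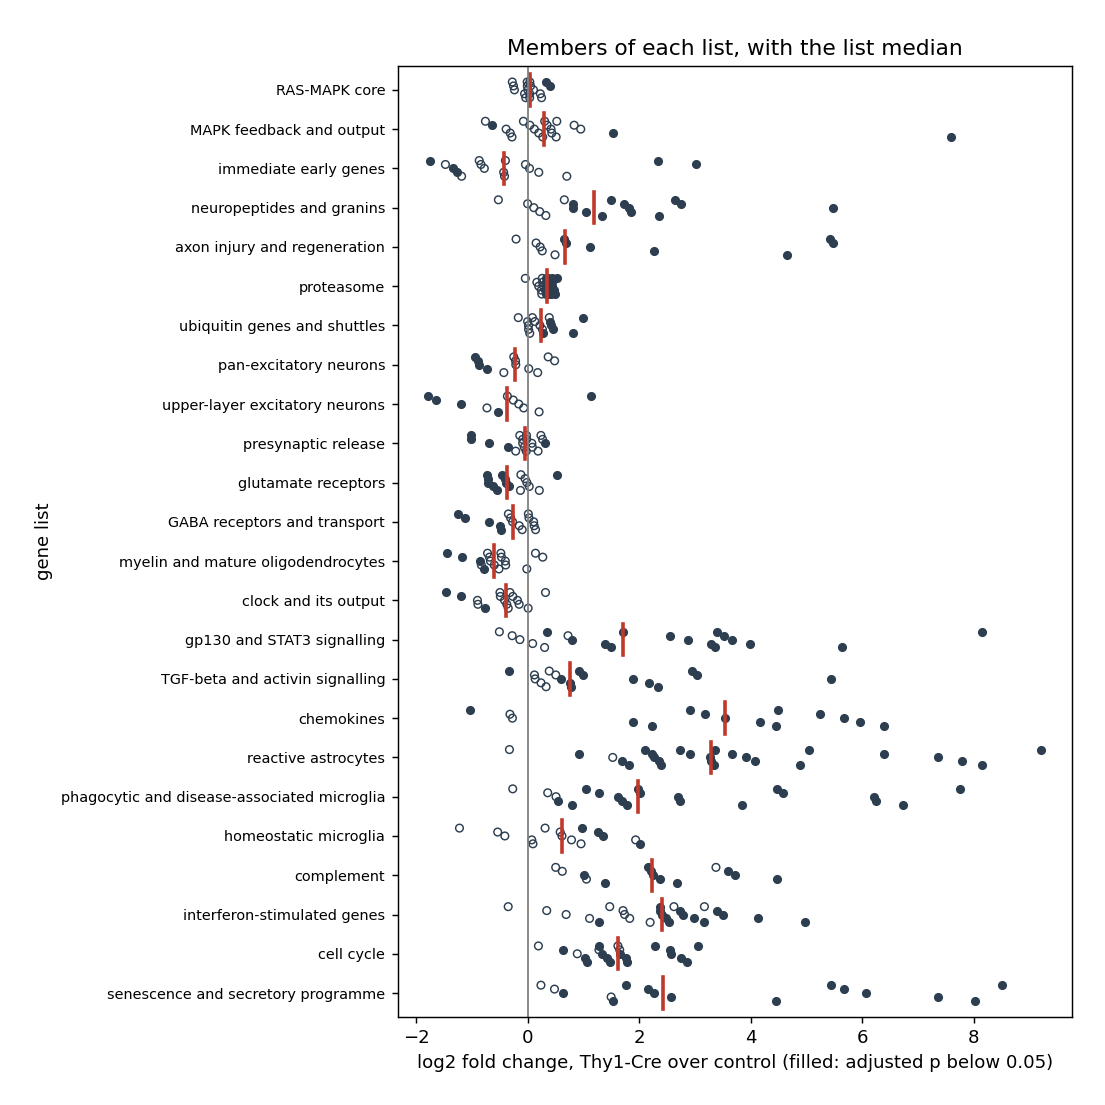
Log2 fold change of every tested member of 24 gene lists (1 row per list, 1 point per gene, filled where called at an adjusted p below 0.05), with the list median as a bar and the median of all tested genes as a line at 0. Members of the glial and cytokine lists lie mostly to the right of 0, and members of the synaptic, myelin and clock lists mostly to the left.

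By their list means, myelin and clock genes were lower in all 5 Thy1-Cre libraries. Of 17 myelin and oligodendrocyte genes 4 were called lower and none higher, but for 11 every Thy1-Cre library lay below every control, and 9 were called in a fit of the 9 libraries alone. Mbp, a main protein of myelin, went from 2431, 2759.6, 2487 and 2403 to 1124, 1507, 1326, 1501 and 1455 CPM (-0.87 ± 0.24, edgeR adjusted p = 0.0131). Mal, another myelin protein, fell from 187, 215, 183 and 237 to 131, 128, 106, 133 and 99.3 CPM (-0.78 ± 0.16, edgeR adjusted p = 0.0011). Markers of the precursor cells, such as Pdgfra, at 52.4 to 77.7 CPM in the controls and 52.7 to 86.02 CPM in the Thy1-Cre libraries, were not called apart from Vcan, a proteoglycan that reactive tissue also makes. Of 16 clock genes 3 were called lower and none higher. Per3 fell from 66.97, 48.9, 48.3 and 38.1 to 19.5, 18.3, 20.1, 17.6 and 15.5 CPM (-1.48 ± 0.29, edgeR adjusted p = 0.000995), and Hlf, an output factor of the clock, from 233, 228, 208 and 242 to 107, 98.7, 62.03, 148 and 78.9 CPM (-1.21 ± 0.28, edgeR adjusted p = 0.00393). Arntl and Clock, which drive the oscillator, were not called (edgeR adjusted p = 0.276 and 0.99). The labels give no hour of tissue collection.

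Genes of cytokine signalling were higher, and least so in replicate 2. Signals of the gp130 family, which act through JAK kinases and STAT3, had 15 of 21 tested genes called higher and none lower, with a median of 1.70. Among the ligands, Lif was at 0.822, 0.871, 0.371 and 0.711 CPM in the controls and 0.599, 1.14, 36.05, 2.39 and 14.98 CPM in the Thy1-Cre libraries (3.98 ± 0.81, edgeR adjusted p = 0.0014), and Il11 at 0.329, 0.237, 0.26 and 0.379 CPM against 0.257, 0.307, 7.72, 0.717 and 8.37 CPM (3.52 ± 0.93, edgeR adjusted p = 0.00953). Both were highest in replicates 3 and 5, and replicate 1 was not above the controls for either. The receptor Osmr rose from 5.3, 3.88, 2.97 and 3.89 to 27.6, 4.88, 67.4, 51.4 and 44.5 CPM (3.29 ± 0.51, edgeR adjusted p = 0.000145), and Stat3 from 49.4, 53.4, 41.03 and 48.1 to 109.9, 57.3, 183, 138 and 188 CPM (1.5 ± 0.24, edgeR adjusted p = 0.000194). Replicate 2 lay inside the control range for Osmr and just above it for Stat3. The targets Bcl3, at 0.205, 0.277, 0.0742 and 0.0948 against 2.95, 0.571, 13.5, 9.36 and 15.3 CPM (5.63 ± 0.85, edgeR adjusted p = 9.23e-05), and Socs3, at 3.57, 3.17, 2.89 and 2.23 against 14.1, 2.81, 69.1, 15.6 and 54.3 CPM (3.39 ± 0.66, edgeR adjusted p = 0.00104), also rose, with replicate 2 inside the control range for Socs3. Il6, the founding ligand of the family, had too few counts to be tested.

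Of the TGF-beta and activin list 11 of 18 were called higher and 1 lower. The ligand Tgfb1 was at 4.73, 5.82, 4.64 and 6.54 CPM in the controls and 24.3, 14.7, 30.2, 28.8 and 38.4 CPM in the Thy1-Cre libraries (2.33 ± 0.32, edgeR adjusted p = 3.97e-05), above every control in each mouse. The one lower member was the signal transducer Smad3 (fell by 0.35 ± 0.12, edgeR adjusted p = 0.0476), whose call was lost without any 1 of the 4 controls or Thy1-Cre replicate 1 or 2 (edgeR adjusted p of 0.0586 to 0.189) and with a sex term.

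Of the TNF, IL-1 and NF-kB list 11 of 19 were called higher and none lower. Il1rn, the antagonist of the IL-1 receptor, was at 0.0411, 0, 0.111 and 0 CPM against 2.01, 0.264, 6.3, 5.1 and 12.3 CPM (6.84 ± 1.01, edgeR adjusted p = 7.89e-05). Tnfrsf1a, a TNF receptor, rose from 9.94, 9.9, 8.31 and 9.81 to 34.5, 11.4, 55.5, 54.2 and 63.1 CPM (2.21 ± 0.37, edgeR adjusted p = 0.000252). Il1b, at 0.288, 0.237, 0.148 and 0.237 against 0, 0.351, 1.84, 0.319 and 0.742 CPM, was not called (edgeR adjusted p = 0.144). Of the chemokine genes 12 of 15 were called higher and 1 lower, with a median of 3.53. Ccl3, which attracts phagocytes, had 0.0822, 0.119, 0.111 and 0.0948 CPM in the controls and 4.4, 0.264, 6.81, 10.4 and 11.3 CPM in the Thy1-Cre libraries (5.95 ± 0.93, edgeR adjusted p = 0.000141). Cxcl12, a chemokine that the resting brain makes, was the one that fell, from 57.6, 51.6, 33.4 and 50.7 to 20.1, 39.98, 14.7, 22.7 and 20.3 CPM (-1.04 ± 0.28, edgeR adjusted p = 0.0126).

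Of the reactive astrocyte list 24 of 26 genes were called higher and none lower, with a median of 3.28. Gfap, the intermediate filament of astrocytes, stood at 174, 243, 168 and 179 CPM in the controls and 2566, 621, 2640.1, 4971 and 3530.3 CPM in the Thy1-Cre libraries (3.91 ± 0.45, edgeR adjusted p = 1.48e-05). Replicate 2 was above the controls and far below the other 4 mice. Timp1, an inhibitor of matrix proteases, went from 0.247, 0.237, 0.0742 and 0.142 to 20.7, 0.923, 29.5, 43.03 and 53.1 CPM (7.36 ± 1.02, edgeR adjusted p = 4.91e-05), again with replicate 2 the lowest of the Thy1-Cre libraries. Aspg, an asparaginase, differed in this, at 2.84, 1.5, 1.45 and 1.99 CPM against 12.3, 15.9, 21.7, 21.8 and 26.4 CPM (3.33 ± 0.31, edgeR adjusted p = 2.93e-07), since replicate 2 was not the lowest. Of the markers of astrocyte identity 1 of 15 was called higher and 1 lower (6.7% each, against 10.5% and 7.56% of all tested genes). Aqp4, the water channel of their endfeet, rose by 1.29 ± 0.31 (edgeR adjusted p = 0.00527), and the glutamate transporter Slc1a2, at 2694 to 5512 CPM in the controls and 2433 to 4446 CPM in the Thy1-Cre libraries, was not called.

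Genes of phagocytic microglia were higher. Of the phagocytic and disease-associated list 18 of 21 were called higher and none lower, with a median of 1.97, against 4 of 15 for the homeostatic list. Itgax, an integrin of that state, was at 0.37, 0.633, 0.742 and 0.19 CPM in the controls and 15.7, 4.52, 6.02, 19.9 and 8.94 CPM in the Thy1-Cre libraries (4.47 ± 0.57, edgeR adjusted p = 2.54e-05). Spp1, osteopontin, was at 6.25, 1.54, 4.86 and 10.2 CPM against 265, 9.88, 182, 1789 and 773 CPM (6.73 ± 1.1, edgeR adjusted p = 0.000252). Replicates 1 and 4 had the highest Itgax, replicates 4 and 5 the highest Spp1, and replicate 2 lay above every control for Itgax but within their range for Spp1. P2ry12, at 53.1, 33.7, 39.4 and 36.3 against 23.99, 38.3, 14.3, 38.7 and 24.2 CPM, and Tmem119, at 30.5, 30.2, 24.9 and 32.7 against 51.5, 32.9, 27.5, 72.5 and 41.04 CPM, both defining markers of resting microglia, were not called.

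Complement genes rose in 10 of 14 cases and none fell. C4b stood at 54.6, 40.2, 23.9 and 22.5 CPM in the controls and 253, 104, 205, 368 and 204 CPM in the Thy1-Cre libraries (2.68 ± 0.31, edgeR adjusted p = 1.48e-05). C1qa, a subunit of the initiating complex, went from 34.6, 46.1, 33.1 and 51.1 to 226, 66.2, 111, 452 and 204 CPM (2.36 ± 0.47, edgeR adjusted p = 0.00128). Lysosomal genes were called higher in 15 of 22 cases, with Ctsd, a protease, at 356, 417, 421 and 399 CPM against 1502, 629.6, 842, 2575 and 1182 CPM (1.76 ± 0.36, edgeR adjusted p = 0.00148). In all 3 genes replicate 4 was the highest and replicate 2 the lowest of the Thy1-Cre libraries, still above the controls. Of the 31-base words of C4b 48.3% occur in transcripts of other genes too, so its counts are uncertain.

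Markers of blood-borne cells were sparse. Of 16 T and NK cell markers only 6 had counts enough to be tested and none was called, and Cd3e, Cd3d and Cd3g, which define T cells, were not among those tested, with 0 to 2 counts in each control and 0 to 6 in each Thy1-Cre library. Cd5, a surface antigen of T cells that was also too low to be tested, had 1 count in each control and 13, 8, 5, 17 and 11 counts in the Thy1-Cre libraries, more in every one. The 6 tested members went mostly the other way, with a median log2 fold change of -0.57 and a range of -1.16 to 0.35. Of 6 tested neutrophil and monocyte markers 2 were called higher, Csf3r, at 6.94, 5.82, 6.34 and 6.4 against 15.1, 9.66, 11.04, 28.7 and 17.3 CPM (1.36 ± 0.34, edgeR adjusted p = 0.00617), and Chil3, at 0, 0, 0.0371 and 0 against 1.88, 0.0439, 0.092, 8.01 and 0.169 CPM, 201-fold in summed counts per total, with a 95% counting interval of 35.8 to 7989. Replicates 1 and 4 held nearly all the counts of Chil3. Microglia also express Csf3r. Ccr2, the defining receptor of inflammatory monocytes, was at 0.26 to 0.493 CPM in the controls and 0.176 to 1.24 CPM in the Thy1-Cre libraries and was not called, and none of 8 border macrophage markers was.

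Interferon-stimulated genes ranked the mice in another order. Their mean log2 CPM was 2.76, 1.54, 1.25, 4.78 and 3.71 in replicates 1 to 5 against 0.94 to 1.61 in the controls, so replicates 4, 5 and 1 were high while replicates 2 and 3 stayed in the control range. 14 of 25 were called higher and none lower. Isg15, a ubiquitin-like modifier, was at 0.37, 0.475, 0.482 and 0.758 CPM in the controls and 3.72, 0.835, 0.598, 30.96 and 9.62 CPM in the Thy1-Cre libraries (4.13 ± 1.2, edgeR adjusted p = 0.018), a call lost without control replicate 1 or 2 or Thy1-Cre replicate 4 (edgeR adjusted p of 0.0509 to 0.0728). Gbp2, a GTPase of cell-autonomous defence, went from 2.67, 2.3, 2.08 and 2.8 to 10.99, 4.96, 5.52, 36.2 and 23.96 CPM (2.73 ± 0.72, edgeR adjusted p = 0.00962), with every Thy1-Cre library above every control. The number of calls fell to 3 without replicate 4, to 4 without control replicate 1 and to 5 in a fit of the 9 libraries alone. Ifit1, at 1.64, 1.86, 0.89 and 2.56 against 6.76, 2.37, 0.966, 29.05 and 13.9 CPM, was not called (edgeR adjusted p = 0.0937). Class I antigen presentation had 6 of 12 called higher, including H2-D1 (1.62 ± 0.32, edgeR adjusted p = 0.00109).

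Promoters of Isg15 and Gbp2 are shown because they carry the interferon-stimulated response element, searched here on both strands as GAAA, any 2 bases and GAAA again, which factors of the interferon response bind. As above, each is the 250 bases before the RefSeq start (GRCm38.p6), 5′ to 3′, with the element in capitals, for chr4:156200819-156201068 on the minus strand and chr3:142620413-142620662 on the plus strand.
Isg15: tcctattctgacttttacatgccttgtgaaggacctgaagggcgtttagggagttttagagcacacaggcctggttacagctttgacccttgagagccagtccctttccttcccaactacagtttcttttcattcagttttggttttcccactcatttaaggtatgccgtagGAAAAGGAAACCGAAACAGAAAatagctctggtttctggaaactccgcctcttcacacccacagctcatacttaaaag
Gbp2: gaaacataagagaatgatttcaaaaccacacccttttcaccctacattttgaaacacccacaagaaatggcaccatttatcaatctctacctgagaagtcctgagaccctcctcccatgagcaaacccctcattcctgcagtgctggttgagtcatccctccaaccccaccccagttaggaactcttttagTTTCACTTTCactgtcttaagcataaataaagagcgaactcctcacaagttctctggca
In Isg15 overlapping matches run together, 3 in all. The element was present in 10 of the 18 members with a RefSeq promoter (55.6%) and in 3.46% of all genes with one. Of the 10 members with the element 6 were called, and of all 18 with a promoter 11 were, so the calls did not go with the element.

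Cell division genes were high in replicates 1 and 4. Of 21 genes 16 were called higher, none lower, and none without overlap between the groups. Mki67, an antigen of cycling cells, was at 1.77, 1.31, 2.3 and 2.56 CPM in the controls and 26.9, 2.06, 3.49, 30.998 and 2.8 CPM in the Thy1-Cre libraries (2.74 ± 0.69, edgeR adjusted p = 0.00691). Replicates 2, 3 and 5 lay within or just above the control range. Mcm3, a subunit of the replicative helicase, was at 3.45, 3.4, 2.93 and 2.84 CPM against 19.03, 3.08, 4.41, 15.8 and 11.1 CPM (1.76 ± 0.38, edgeR adjusted p = 0.00186). The count fell to 7 without replicate 1, to 8 without replicate 4 and to 3 in a fit of the 9 libraries alone. Itgax was highest in the same 2 libraries, but the phagocytic microglia list as a whole was not. Its mean log2 CPM was 5.44, 3.70, 4.91, 6.40 and 5.46 in replicates 1 to 5. The part of microglia in the cell cycle counts was not tested.

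Genes of cell cycle arrest and secretion were higher as well. Cdkn1a, the inhibitor p21, was at 17.7, 17.8, 9.5 and 39.01 CPM in the controls and 81.7, 87.7, 248, 54.9 and 147 CPM in the Thy1-Cre libraries (2.56 ± 0.64, edgeR adjusted p = 0.00687), above every control in all 5 mice. Of the senescence and secretory list 13 of 16 were called higher and none lower, and Cdkn2a, which encodes p16, had too few counts to be tested. One of the called members, Lmnb1 (0.63 ± 0.2, edgeR adjusted p = 0.03), encodes a lamin that senescent cells lose. The call of Lmnb1 was lost without control replicate 1, 2 or 4, without Thy1-Cre replicate 1, 4 or 5 (edgeR adjusted p of 0.0616 to 0.0818) and with a sex term. Of 17 p53 targets 3 were called higher (17.6%), Cdkn1a among them. Among DNA repair genes it was 1 of 16 (6.2%), against 10.5% of all tested genes. Mmp3, a matrix protease, had no count in any control and 0.513, 0.0879, 3.49, 0.757 and 4.39 CPM in the Thy1-Cre libraries, at least 63.4-fold higher against a floor of 3 counts over the 4 controls. Mmp12, the macrophage elastase, likewise had none and 1.24, 0.176, 1.38, 1.24 and 2.53 CPM, at least 44.9-fold higher. These floors cover counting error only.

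The promoter of Mmp3 is shown for its AP-1 site, TGANTCA, the letters bound by FOS, FOSL1 and JUN proteins, in the 250 bases before the RefSeq start at chr9:7445572-7445821 (GRCm38.p6, plus strand), with the match in capitals.
Mmp3: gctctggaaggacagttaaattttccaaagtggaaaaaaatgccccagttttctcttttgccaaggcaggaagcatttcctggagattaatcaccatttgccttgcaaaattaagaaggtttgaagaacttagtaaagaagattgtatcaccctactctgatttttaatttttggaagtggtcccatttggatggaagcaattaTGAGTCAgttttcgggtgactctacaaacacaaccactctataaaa
These letters were found in 5 of the 15 members of the senescence and secretory list with a RefSeq promoter (33.3%) and in 7.82% of all genes. Of those 5 members 3 were called, against 9 of all 15, and Il6 and Mmp13 had too few counts to be tested. Further elements were searched in the same way. The STAT site TTCNNNGAA was in 12.5% of 24 reactive astrocyte genes and 8.13% of all genes. The antioxidant element core TGACNNNGC was in 36.4% of 11 oxidative stress genes, 19% of 21 proteasome genes and 11.5% of all genes. The E-box CACGTG was in 35.7% of 14 clock genes and 6.86% of all genes, and in none of the 3 clock genes called. Fosl1 and Mmp3 were both highest in replicates 3 and 5, as were other genes such as Slc6a5, Lif and Il11. A link between Fosl1 and Mmp3 was not tested.

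Oxidative and metal stress genes were called higher in 7 of 15 cases and none lower. Srxn1, which restores peroxiredoxins, was above every control in all 5 libraries, from 82.3, 94.6, 83.2 and 98.2 to 209, 199.5, 354, 223 and 301 CPM (1.52 ± 0.24, edgeR adjusted p = 0.000155). Mt2, a metal-binding protein of astrocytes, was at 72.6, 60.4, 62.4 and 79.4 CPM against 377, 87.99, 542, 488 and 486 CPM (2.53 ± 0.44, edgeR adjusted p = 0.000346), with replicate 2 far below the other 4. Hmox1, which degrades haem, rose by 2.82 ± 0.49 (edgeR adjusted p = 0.000368), and Nqo1, at 2.99 to 4.04 CPM in the controls and 2.16 to 6.1 CPM in the Thy1-Cre libraries, was not called. Hspb1, a small heat shock protein, was at 5.18, 10.2, 3.67 and 8.2 CPM against 104, 5.8, 213, 129.8 and 666 CPM (5.04 ± 1.02, edgeR adjusted p = 0.00146), with replicate 2 inside the control range, and 3 of 13 heat shock genes were called. Of the inflammasome and cell death list 10 of 15 were called higher, including Tnfrsf12a, a receptor of injured tissue (3.25 ± 0.62, edgeR adjusted p = 0.000877).

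Vascular genes were described by identity and by activation. Of 17 endothelial and barrier genes 3 were called higher and none lower, and of 11 mural cell genes 2. Pecam1, a defining endothelial marker, at 10.5 to 21.1 CPM in the controls and 16.5 to 32.2 CPM in the Thy1-Cre libraries, and Pdgfrb, a marker of pericytes, at 20.9 to 30.4 CPM in the controls and 21.5 to 35.3 CPM in the Thy1-Cre libraries, were not called. Activation genes were called higher in 9 of 16 cases. Icam1, which binds leukocytes, was at 1.19, 1.46, 1.85 and 1.47 CPM in the controls and 8.38, 7.16, 10.9, 10.4 and 12.7 CPM in the Thy1-Cre libraries (2.72 ± 0.43, edgeR adjusted p = 0.000166), with no overlap between the groups. Of 20 matrix genes 12 rose, including Col4a1, a collagen of basement membranes, from 48.3, 30.6, 27.4 and 36.7 to 100.3, 60.2, 188, 104 and 163 CPM (1.79 ± 0.37, edgeR adjusted p = 0.00169). The hyaluronan receptor Cd44 was at 5.14, 3.92, 5.86 and 2.94 CPM against 56.8, 10.02, 191, 101 and 304 CPM (4.88 ± 0.72, edgeR adjusted p = 9.65e-05), and Acan, the main proteoglycan of perineuronal nets, at 4.15, 5.26, 3.71 and 5.78 against 9.53, 9.97, 60.01, 13.5 and 50.01 CPM (2.6 ± 0.54, edgeR adjusted p = 0.00159). Both belong to the perineuronal net and hyaluronan list, of which 4 of 11 were called higher and 1 lower, with a median of 0.08. The lower one was Bcan, a proteoglycan of the brain matrix, which fell from 295, 283, 255 and 255 to 121, 250.4, 129.7, 114 and 74.5 CPM (-0.98 ± 0.26, edgeR adjusted p = 0.0107), below every control in all 5 libraries. Of 5 haemoglobin transcripts of red blood cells 2 were called lower, including Hba-a2 at 53.6 to 134 CPM in the controls and 4.56 to 30.9 CPM in the Thy1-Cre libraries (fell by 2.43 ± 0.61, edgeR adjusted p = 0.00696). Choroid plexus transcripts varied within both groups, Ttr from 12.03 to 1137 CPM in the controls and 7.29 to 923 CPM in the Thy1-Cre libraries, and none of 9 was called. Markers of neighbouring regions were called in 0 of 9 cases for the striatum. For the hippocampus 1 of 9 was called higher and 1 lower (11.1% each, against 10.5% and 7.56% of all tested genes). Of the remaining lists, class II antigen presentation had 2 of 7 called higher, lipid efflux and storage 3 of 14 and glucocorticoid targets 2 of 10, and 1 of 10 fibroblast genes was called lower.

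**Figure D4:**
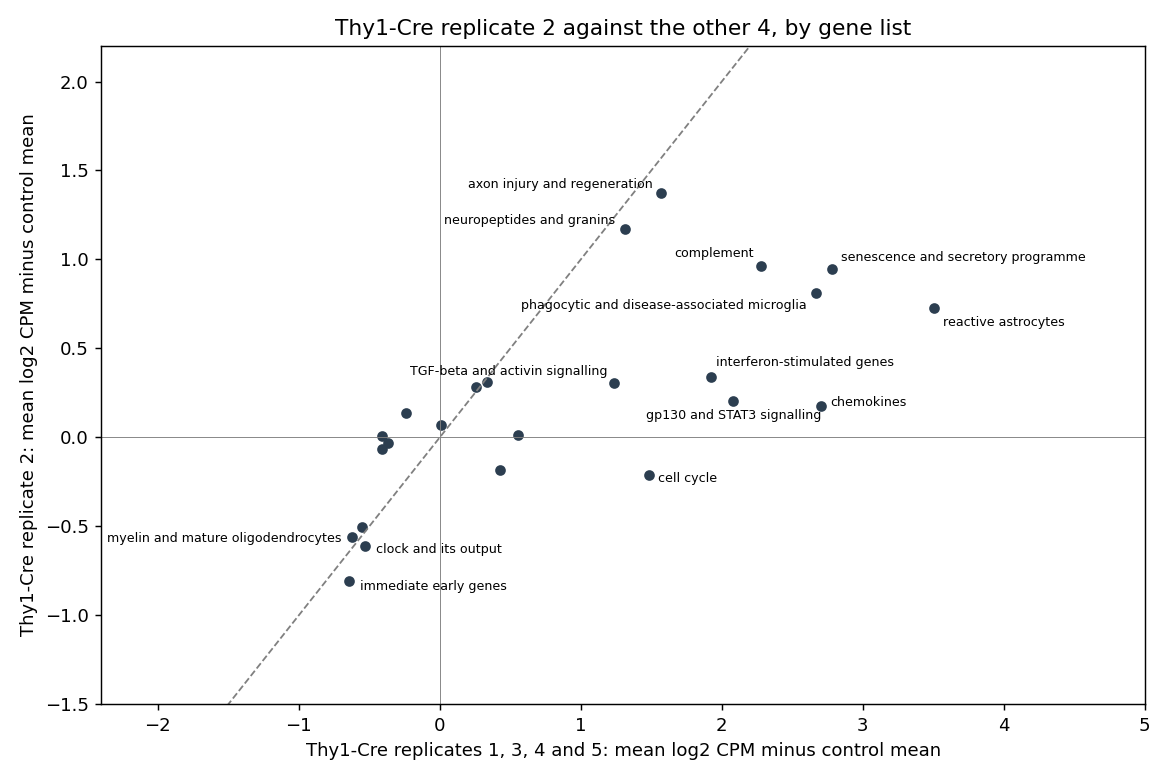
Each point is a gene list, placed by the mean log2 CPM difference from the controls in Thy1-Cre replicates 1, 3, 4 and 5 (horizontal axis) and in replicate 2 (vertical axis), with the line of equality dashed. Neuropeptide, axon injury, myelin and clock lists lie near the line, and astrocyte, cytokine, chemokine and cell cycle lists lie well below it. Pan-excitatory, presynaptic, glutamate receptor and GABA lists, which are not labelled, lie above it.

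Replicate 2 of Thy1-Cre was milder, and not evenly so. Replicates 1 to 5 lay above every control for 32.2%, 27.0%, 31.3%, 31.7% and 31.1% of tested genes, and below every control for 32.3%, 28.3%, 33.2%, 30.2% and 32.8%. The median absolute log2 difference of replicate 2 from the control mean was 0.263, against 0.322 to 0.358 in the other 4. Controls differed from the mean of the other controls by 0.167 to 0.206. For the neuropeptide list its mean log2 CPM was 6.04, among values of 6.24, 6.04, 6.7, 5.62 and 6.17 in replicates 1 to 5, and above the controls at 4.72 to 5.00. For axon injury genes the means were 4.67, 4.64, 5.13, 4.55 and 5.01 against 3.05 to 3.49, and for myelin genes 6.03, 6.03, 5.62, 6.25 and 5.98 against 6.54 to 6.62. For gp130 and STAT3 genes, in contrast, they were 3.45, 2.29, 4.67, 4.07 and 4.49 against 1.86 to 2.33, and for cell cycle genes 3.5, 0.92, 1.54, 3.67 and 1.74 against 0.89 to 1.23, with replicate 2 inside the control range in both. Reactive astrocyte genes had 4.53, 2.45, 5.26, 5.37 and 5.75 against 1.52 to 1.87, so replicate 2 was above the controls by less than the others. In list means relative to the controls, replicate 2 was at 1.37 and the other 4 on average at 1.57 for axon injury genes, at -0.61 and -0.53 for clock genes, at 0.73 and 3.51 for reactive astrocyte genes and at 0.18 and 2.70 for chemokines. Lists of excitatory neurons and synapses departed too, at 0.01 and -0.41 for pan-excitatory genes and at 0.14 and -0.24 for presynaptic genes. The values were -0.03 and -0.37 for glutamate receptors and -0.07 and -0.41 for GABA receptors and transport. Upper-layer genes, at -0.50 and -0.55, did not depart. The labels of replicate 2 are those of the other 4.

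The most extreme fold changes, in genes without overlap between the groups, belong partly to the lists above and partly not. With limma voom the calls of Tgm1 and Saa3 were lost. Tgm1, a transglutaminase, was at 0, 0.0792, 0.0371 and 0.0948 CPM against 36.9, 0.22, 39.6, 82.4 and 88.3 CPM (edgeR adjusted p = 0.000192), Hcar2, a receptor of hydroxybutyrate on microglia, at 0, 0, 0.0742 and 0 against 1.5, 0.439, 6.9, 6.57 and 7.73 CPM (edgeR adjusted p = 3.42e-05), and Saa3, an acute phase protein, at 0.0411, 0.0396, 0 and 0 against 0.812, 0.0879, 1.89, 15.1 and 3.85 CPM (edgeR adjusted p = 0.00211). Ifi202b, Cd300lf and Lilr4b, all of immune cells, were at 0 to 0.317 CPM in the controls and 0.351 to 29.7 CPM in the Thy1-Cre libraries, at 0 to 0.0411 CPM in the controls and 0.571 to 8.42 CPM in the Thy1-Cre libraries and at 0 to 0.0396 CPM in the controls and 0.0439 to 5.18 CPM in the Thy1-Cre libraries. Among the genes that fell, Plk5, a neuronal relative of the polo kinases, was at 20.3, 21.7, 19.2 and 20.1 CPM against 1.75, 3.73, 1.38, 4.34 and 1.38 CPM (-3.01 ± 0.4, edgeR adjusted p = 3.42e-05). Col24a1, a fibrillar collagen, fell from 7.81, 2.49, 4.41 and 2.61 to 0.428, 0.659, 1.7, 0.757 and 0.236 CPM (-2.53 ± 0.48, edgeR adjusted p = 0.000769).

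For 3 of the largest decreases, levels also differed within other groups of the series. The ribosomal gene Rps18 was at 68.6, 83.4, 133 and 122 CPM in the controls and 4.79, 3.69, 5.24, 5.94 and 4.49 CPM in the Thy1-Cre libraries (fell by 4.4 ± 0.94, edgeR adjusted p = 0.00235), while all 6 Emx1-Cre libraries of 3 months were at 3.58 to 6.62 CPM, and 1 of 5 Tie2-Cre libraries of 3 months was at 66.8 CPM and the others at 2.67 to 3.99 CPM. Rpl29 was at 81.2, 193, 83.5 and 156 CPM against 1.62, 1.36, 1.47, 1.55 and 2.4 CPM (fell by 6.24 ± 1.69, edgeR adjusted p = 0.0126), while the Emx1-Cre libraries of 3 months were at 74 to 300 CPM and 3 of the 4 controls of 10 months at 1.02 to 1.43 CPM. Of the 31-base words of their transcripts, 22.4% for Rps18 and 44.5% for Rpl29 also occur in other genes, so these counts are uncertain. The call of Rps18 was also lost with limma voom. Bfsp2, a lens filament gene, was at 1.48 to 6.45 CPM in the controls and 0.0797 to 0.132 CPM in the Thy1-Cre libraries, and at 0.0363 to 3.18 CPM among the 5 Tie2-Cre libraries. The cause was not tested. Counts are likewise uncertain for other genes described here that share many such words with other transcripts, at 92.6% for Hba-a2, 52.3% for Hspb1, 43.9% for Vcp, 41.5% for Chil3, 37.2% for Lilr4b, 33.2% for Ctsd, 26.7% for H2-D1 and 23.1% for Csf3r. Gm765 was at 4.71 to 8.96 CPM in the controls and 0.527 to 1.24 CPM in the Thy1-Cre libraries, at 0.0422 to 0.272 CPM in the Emx1-Cre libraries of 3 months and at 3.91 to 6.3 CPM in the Tie2-Cre libraries. ETV3L, a gene with no entry in the annotation used here, was at 0 in all controls and at 1.07, 9.18, 13.5, 0.558 and 1.48 CPM in the Thy1-Cre libraries, at least 155-fold higher. It was at 0.117 to 14.1 CPM in the Emx1-Cre libraries of 3 months and at no more than 0.0845 CPM in the Tie2-Cre libraries.

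Against the 6 Emx1-Cre libraries of the same age, also labelled strong, 1432 genes were higher in Thy1-Cre (8.05% of those tested) and 1404 lower (7.89%), but only 11 and 13 in a fit of those 11 libraries alone, where the spread is not shared with the other groups. Cholesterol synthesis genes were higher in Thy1-Cre in 12 of 19 cases. Sqle, the squalene epoxidase, was at 80.3, 85.7, 78.7, 62.2 and 63.1 CPM in the Thy1-Cre libraries and 42.03 ± 12.5 CPM (mean ± SD, n = 6) in Emx1-Cre, a difference of 0.81 ± 0.18 (edgeR adjusted p = 0.00547). Against the controls 2 of the list were called higher and 0 lower, and the share called higher, 10.5%, was that of all tested genes. Higher in Thy1-Cre were also Ptx3, a pentraxin, at 2.18, 0.176, 88.7, 5.66 and 33.04 against 2.32 ± 1.79 CPM (3.49 ± 0.8, edgeR adjusted p = 0.00699), and Ch25h, which makes 25-hydroxycholesterol, at 9.36, 0.351, 8.55, 22.8 and 29.8 against 1.68 ± 1.74 CPM (3.08 ± 0.62, edgeR adjusted p = 0.00384). Lower were Edn1, endothelin, at 4.15, 2.11, 3.82, 4.18 and 2.63 against 19.9 ± 17.2 CPM (by 2.56 ± 0.45, edgeR adjusted p = 0.00173), and Tsc22d3, a target of glucocorticoids, at 102, 67.6, 85.9, 129 and 55.4 against 282 ± 136 CPM (by 1.68 ± 0.31, edgeR adjusted p = 0.00234). For Slc6a5, Gal and Gfap the difference between the drivers was 1.94 ± 0.85, 0.27 ± 0.59 and 0.44 ± 0.35, and did not pass the test (edgeR adjusted p = 0.113, 0.783 and 0.394).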

How the data were processed

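Polyadenylated RNA of whole cerebral cortex was sequenced, and the authors deposited 1 table of estimated counts per gene, made with Salmon 1.5.2 on GRCm38, per the submitters' processing notes. For the annotation release and the strand setting, the sources used here give nothing. Estimated counts were rounded to whole numbers. Labels name the samples biological replicates, and nothing further says that they are separate mice, so p-values measure the spread between these samples. All 30 libraries were fitted in edgeR 4.0.16 (R 4.3.3) with 1 coefficient per group, TMM scaling, a filter at 10 counts and 15 in total, and the robust quasi-likelihood test, and p-values were adjusted by Benjamini-Hochberg over 17796 genes. List means are means of log2 CPM with a prior count of 2. Counts of Xist and of Y-linked genes gave the sex. Alternatives used RLE scaling, no filter or a stricter filter, DESeq2 1.42.0, limma 3.58.1 with voom, fewer libraries, a sex term, females alone and a replicate block, and 1 fit of the 9 libraries without Thy1-Cre replicate 2, chosen after seeing the data. Gene positions come from GENCODE M21 and promoters from RefSeq (GRCm38.p6). Floors of 3 counts and 95% intervals cover counting error only.

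The groups and gene lists were chosen with earlier results of these data known. Genes are described by a rule: Brap and Thy1, the 10 highest and 10 lowest fold changes of called genes whose groups do not overlap and whose mean reaches 1 CPM, per list the 4 or fewer members with the lowest adjusted p, and defining markers. Chosen after their values were seen were Arntl, Atf4, Bcan, Bcl11b, C1qa, Cck, Cd5, Chgb, Clock, Col4a1, Cux2, Cxcl12, Ddit3, Dusp4, Edn1, Egr1, Fos, Gap43, Ifit1, Il11, Il1b, Inhba, Isg15, Lif, Lmnb1, Nqo1, P2ry12, Pdgfra, Pdgfrb, Ptx3, Pvalb, Slc17a7, Slc1a2, Smad3, Snap25, Socs3, Spp1, Spry2, Sqle, Stmn2, Syp, Tmem119, Ttr, Vamp2 and Vip. The edgeR fit was tested on simulated counts. Some genes that the rule selects are not reported here.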

Additional observations from a re-analysis of the deposited data

Results flagged for a closer look

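In several genes 1 library stood apart from the others of its group by more than the 95% limit of Dixon's ratio, which chance alone passes in about 1 in 20 groups. There were 19 such libraries in 266 groups, for genes named in the text. Thy1-Cre replicate 2 was the low one for Ccl3 at 0.264, Cd300lf at 0.571, Lilr4b at 0.0439, Mt2 at 88, Tgm1 at 0.22 and Timp1 at 0.923 CPM. Among the other Thy1-Cre values that stood apart, in CPM, were Arntl in replicate 3 at 31.2 (high), Chgb in replicate 2 at 769 (high), Gal in replicate 4 at 6.61 (low) and Lamp5 in replicate 5 at 52 (low). Among the controls they were, in CPM, Chil3 in replicate 3 at 0.0371 (high), Gal in replicate 1 at 0.616 (high), Gfap in replicate 2 at 243 (high), Hcar2 in replicate 3 at 0.0742 (high), Ifi202b in replicate 2 at 0.317 (high), Lilr4b in replicate 2 at 0.0396 (high), Smad3 in replicate 4 at 92.7 (high), Spry2 in replicate 3 at 49.6 (high) and Tnfrsf1a in replicate 3 at 8.31 (low). For Chil3, Hcar2, Ifi202b and Lilr4b the other controls were all at 0. Any count then passes the limit, so these flags say little.

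The effects of the Thy1-Cre and Emx1-Cre drivers at 3 months share their controls. They differed by edgeR's quasi-likelihood test of the difference (adjusted over all genes) for 17 of 134 genes looked at. Over all tested genes 8.05% were higher and 7.89% lower, so the count does not set the named genes apart. Some of the 17 were chosen after their values were seen. On the log2 scale, Thy1-Cre minus Emx1-Cre was higher for Arc by 1.86, Atf4 by 0.56, Ccr2 by 2.68, Ch25h by 3.08, Cux2 by 0.49, Il11 by 2.85, Il1rn by 2.98, Lif by 2.51, Mmp12 by 2.96, Ptx3 by 3.49, Rims1 by 0.58 and Sqle by 0.81. It was negative for Bfsp2 at -4.14, Edn1 at -2.56, Mal at -0.66, Rpl29 at -6.48 and Tsc22d3 at -1.68. In a fit of those 11 libraries alone the whole table held 11 genes called higher and 13 lower.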

How the results depend on the processing

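Against the controls, 1866 genes were higher and 1345 lower. A fit of the 9 libraries alone gave 1180 higher, and females alone gave 186 and 190. Leaving out 1 library gave 1291 to 2095 higher and 839 to 1500 lower, with 862 lower without control replicate 1. With a replicate block over all libraries the counts were 1660 and 1326, and Brap was at 0.39. With the replicate block in the 9 libraries alone they were 255 and 169, and Brap was at 0.38 without a call (edgeR adjusted p = 0.172). The replicate numbers gave no sign of pairing the samples, though 4 correlations cannot exclude it. Deviations of same-numbered libraries correlated at -0.0478, 0.0043, -0.091 and 0.0261, and 1 of 4 was closest to its own number. Brap also lost its call with a sex term (0.31) and among females (0.41), and ranged from 0.35 to 0.44 with 1 library left out.

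Against Emx1-Cre, 1432 genes were higher and 1404 lower. Counts were 758 and 649 with limma voom, 11 and 13 in a fit of those groups alone, and 872 lower with no filter. With 1 library left out they were 717 to 2688 higher and 668 to 2190 lower, the least without Emx1-Cre replicate 1 and the most without its replicate 6. Without Emx1-Cre replicate 4 they were 821 and 864, without Thy1-Cre replicate 3 they were 860 and 702, and without Thy1-Cre replicate 5 818 were lower.

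Thy1, which was not called, turned from just below 0 to 0.0115 with RLE scaling and with DESeq2, 4e-04 with the stricter filter, 0.0391 with the sex term, 0.0135 with the replicate block, 0.0541 with the block in 9 libraries, and to between -0.123 and 0.0793 without 1 library. Trac turned to 0.15 in females alone, and Kcne2, at -1.96 to 0.68 without 1 library, without control replicate 3, and neither was called. The cause was not tested. Of the 183 called genes selected for description, females alone kept 48 called, and none reversed under any setting run. With limma voom 173 kept their call. The 10 lost included Tgm1, Slc6a5, Saa3, Rps18 and Nptx2 (limma adjusted p of 0.0513 to 0.258 over the 10). Beside Brap and Nr4a2, of the 98 other called genes printed here, 12 lost the call without at least 1 library, each named beside its value, and 86 kept it without any 1 library.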
